A study of Mus musculus with 2 samples.

Results

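The Mir183, Mir96 and Mir182 genes of mouse chromosome 6, a microRNA (miRNA) cluster best known from sense organs, were followed in small RNA libraries of the embryonic heart. The members were chosen by name. The Ensembl gene IDs of the deposited counts were matched to the symbols of the GENCODE annotation of mm10, and 3 of the 1973 counted miRNA genes carry these symbols. The data come from healthy hearts of strain B6NCrl at embryonic day 15.5, with no treatment and no altered allele named in the labels. They form 1 group of 2 biological replicates. Replicate 1 is a library from pooled hearts of 78 embryos and replicate 2 a library from pooled hearts of 62 embryos, male and female in each pool. The labels give both pools 1 donor entry, and differences between the libraries cover pools and library preparations together. Without a second condition, the design answers how much of the cluster was counted in the heart and how far the pools differed.

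A miRNA is cut from a folded precursor, the hairpin, and guides a silencing complex to mRNAs that pair with its seed, bases 2 to 8 of the mature strand. Mir183, Mir96 and Mir182 are made from a common primary transcript in vertebrates. They are abundant in photoreceptors, in the hair cells of the inner ear and in sensory neurons. Changes in the seed of miR-96 cause hearing loss in mice and in people.

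The mature strands are shown first, since the members are related to each other in their 5′ arms. The sequences are those of the RefSeq table for GRCm38.p6, written 5′ to 3′ with the seed in capitals, and all 3 genes were matched in it.
miR-183-5p: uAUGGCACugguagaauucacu
miR-96-5p: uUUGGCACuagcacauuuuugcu
miR-182-5p: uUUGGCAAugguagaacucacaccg
miR-183-3p: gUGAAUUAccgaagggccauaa
miR-96-3p: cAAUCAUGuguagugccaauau
miR-182-3p: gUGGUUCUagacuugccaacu

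The 5′ arms have 3 different seeds that are near each other. Counting positions from the 5′ end, miR-183-5p and miR-96-5p differ in the first 8 bases by A2U, miR-96-5p and miR-182-5p by C8A, and miR-183-5p and miR-182-5p by A2U and C8A. All 3 hold the letters UGGCA at bases 3 to 7, which 5 of the 1679 mature mouse miRNAs in the table hold there (0.298%). Beyond the seed, miR-183-5p and miR-182-5p share the run ugguagaa, and their global alignment had 18 identical positions of 25. The alignment of miR-183-5p with miR-96-5p had 15 identical positions of 23. Bases 2 to 7 are the same in miR-96-5p and miR-182-5p. The only other mature miRNA in the table with the seed of miR-96-5p is miR-1271-5p, whose gene, listed as Gm24195, had 0 counts in both libraries. The seed of miR-96-3p is also that of miR-3475-5p, and Mir3475 had 18 counts in replicate 1 and 25 in replicate 2. No seed in the table equals that of miR-183-5p or miR-182-5p.

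The hairpins are given with both mature strands in capitals, because the counts are per hairpin and do not tell the arms apart.
Mir183 hairpin: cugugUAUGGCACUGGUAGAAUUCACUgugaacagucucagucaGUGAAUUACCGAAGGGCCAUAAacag
Mir96 hairpin: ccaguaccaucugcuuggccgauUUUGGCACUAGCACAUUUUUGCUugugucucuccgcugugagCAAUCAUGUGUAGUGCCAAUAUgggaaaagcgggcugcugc
Mir182 hairpin: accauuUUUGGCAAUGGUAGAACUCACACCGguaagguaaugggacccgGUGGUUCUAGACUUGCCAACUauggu

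Each RefSeq hairpin was identical to the GENCODE transcript of the same gene. None of the 3 shares a stretch of 20 bases with another annotated mouse miRNA hairpin, on either strand. Reads that matched several places in the genome are in no gene count. Copies of the mature sequences outside annotated hairpins were not searched for, so whether such reads are missing from the members' counts was not tested.

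All 3 genes lie on the minus strand of chromosome 6 (mm10) within 3820 bases. In the direction of transcription the order is Mir183 (ENSMUSG00000065619.2, chr6:30169668-30169737), Mir96 (ENSMUSG00000065586.1, chr6:30169446-30169551) and Mir182 (ENSMUSG00000076361.1, chr6:30165918-30165992). Mir183 and Mir96 are 116 bases apart, and Mir96 and Mir182 are 3453 bases apart. No annotated gene contains the cluster or overlaps a member in GENCODE M21. On the side of Mir182 the nearest gene within 20 kb is Nrf1, which encodes a transcription factor and lies on the plus strand, 12459 bases from the cluster. On the side of Mir183 it is the long noncoding RNA gene Rncr4, also on the plus strand, 3155 bases away. No other counted miRNA gene lies on the minus strand within 50 kb.

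**Figure D1:**
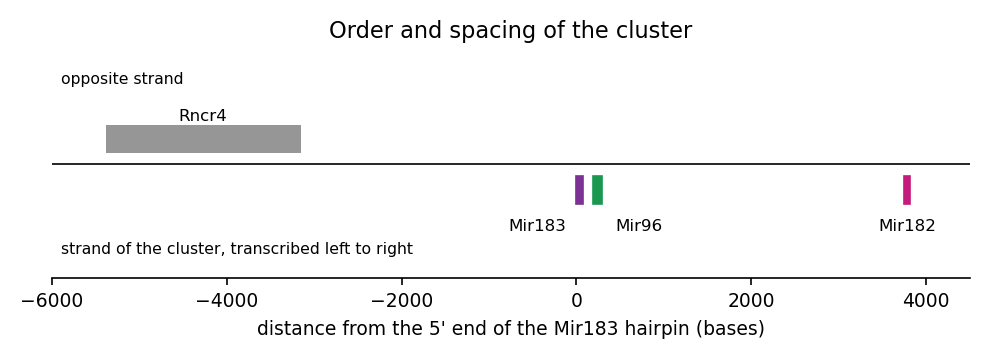
Map of the cluster, drawn to scale in bases from the 5′ end of the Mir183 hairpin, with the strand of the cluster under the line and the opposite strand above it. Mir183 and Mir96 are 116 bases apart, Mir182 follows after 3453 bases, and Rncr4 starts 3155 bases upstream of Mir183 on the other strand and runs away from the cluster.

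Depth set the precision of every level. Reads assigned to the strand of a miRNA gene numbered 3439539 in replicate 1 (48.7% of 7056606 reads) and 5833156 in replicate 2 (49.7% of 11735546 reads). No source used here names the strand columns of the files, and of the 2 that hold a single strand the one with the larger total was read as the gene's strand. Levels are counts per 1000000 of its counts (CPM), so that 1 count is worth 0.291 CPM in replicate 1, against 0.171 CPM in replicate 2. Intervals are exact binomial (Clopper-Pearson) 95% intervals and cover counting error only. Each read covers a mature strand and not a part of a long transcript, so counts were not divided by hairpin length. Counts of different miRNAs can stand in another proportion than their amounts in the tissue. The tissue label was checked on Mir208b, a heart muscle miRNA hosted by a myosin gene. It stood at 53878 CPM in replicate 1, against 37837 CPM in replicate 2.

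The cluster was counted in both heart pools, at a small share of all miRNA counts. Its 3 genes summed to 1447 counts in replicate 1 and 11165 in replicate 2. These are 421 CPM (399 to 443) in replicate 1 and 1914 CPM (1879 to 1950) in replicate 2, or 0.0421% and 0.191% of the counts. The mean was 1167 ± 1056 CPM (SD, n = 2), so the spread between the pools was nearly as large as the level itself. In bulk tissue, fewer cells of a type and less RNA per cell cannot be told apart.

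Mir182, the last hairpin of the cluster, had the most counts, with 696 in replicate 1 and 5045 in replicate 2. Its level was 202 CPM in replicate 1 (188 to 218) and 865 CPM in replicate 2 (841 to 889), with a mean of 534 ± 468 CPM (SD, n = 2). Replicate 2 was the higher library, 4.27 times replicate 1, and the intervals did not overlap. Mir183, the first hairpin, had 524 counts in replicate 1 and 4539 in replicate 2. Its level was 152 CPM in replicate 1 (140 to 166) and 778 CPM in replicate 2 (756 to 801), a mean of 465 ± 443 CPM (SD, n = 2). Replicate 2 was again higher, by 5.11 times, the widest gap of the 3 members. Mir96, the miRNA linked to hearing loss, had the fewest counts, 227 in replicate 1 and 1581 in replicate 2. Its level was 66.0 CPM in replicate 1 (57.7 to 75.2) and 271 CPM in replicate 2 (258 to 285), a mean of 169 ± 145 CPM (SD, n = 2). The library of replicate 2 held 4.11 times as much of it.

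**Figure D2:**
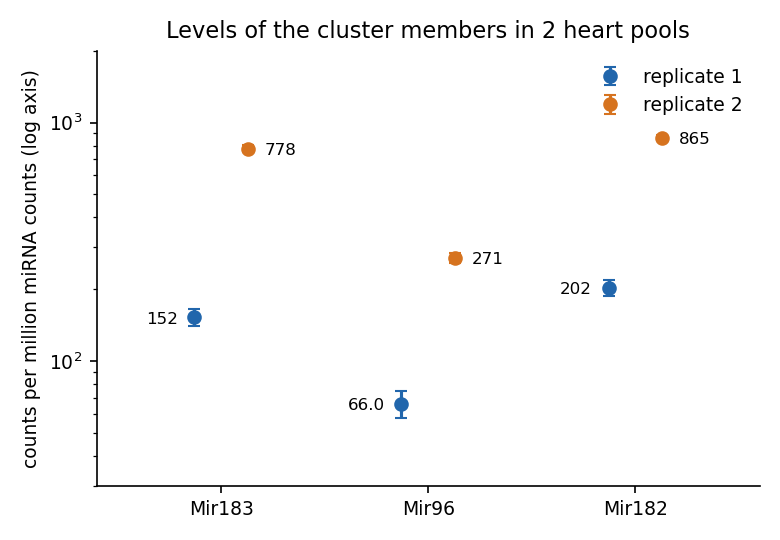
Levels of Mir183, Mir96 and Mir182 in CPM on a log axis, with replicate 1 at the left and replicate 2 at the right of each gene and exact binomial 95% intervals. The replicate 1 values run from 66.0 to 202 CPM and the replicate 2 values from 271 to 865 CPM, with each gene higher in replicate 2.

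The order Mir182, Mir183, Mir96 was the same in both libraries. Among the 327 genes with at least 10 counts in each library, the mean level placed Mir182 101st, Mir183 107th and Mir96 151st. The places differed between the pools. In replicate 1 Mir182 was 137th, Mir183 150th and Mir96 201st, and in replicate 2 they were 83rd, 90th and 133rd. The genes beside them in the order of means were not told apart from them by the spread between pools. Mir182 lay between Mir433 (571 ± 9.32 CPM) and Mir134 (503 ± 67.8 CPM), which differ from it by less than its own SD of 468 CPM. Mir183 lay between Mir125b-2 (466 ± 37.1 CPM) and Mir200b (457 ± 319 CPM). Mir96 lay between Mir155 (170 ± 58.6 CPM) and Mir187 (168 ± 45.7 CPM). Of these 6 neighbours only Mir200b, an epithelial miRNA, differed between the libraries by more than 1 on the log2 scale, with 231 CPM in replicate 1, against 682 CPM in replicate 2.

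Coefficients of variation over both libraries were 95.1% for Mir183, 87.8% for Mir182 and 86.0% for Mir96. Of the 327 genes with at least 10 counts in each library, 6 exceeded the value of Mir183, 10 that of Mir182 and 11 that of Mir96. The common biological coefficient of variation that edgeR estimated over the tested genes was 29.9%. It was taken after TMM scaling and leaves out counting noise. The members' coefficients used CPM at total counts and include that noise, so the measures are unlike.

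The make-up of the cluster differed far less between the pools than its level. Mir182 gave 48.1% of the cluster's counts in replicate 1 (45.5% to 50.7%) and 45.2% in replicate 2 (44.3% to 46.1%). Mir183 gave 36.2% in replicate 1 (33.7% to 38.7%) and 40.7% in replicate 2 (39.7% to 41.6%), and these intervals did not overlap. Mir96 gave 15.7% in replicate 1 (13.9% to 17.7%) and 14.2% in replicate 2 (13.5% to 14.8%). Mir183 thus took a larger part of the cluster in replicate 2 than counting error alone gives, with the pools' own spread not covered by the interval. A ratio of members within a library does not depend on how the libraries are scaled. Mir182 had 1.33 times the counts of Mir183 in replicate 1 (1.18 to 1.49) and 1.11 times in replicate 2 (1.07 to 1.16). The first of these ratios was 1.20 times the second, with an exact conditional 95% interval of 1.06 to 1.35. Mir183 had 2.31 times the counts of Mir96 in replicate 1 (1.97 to 2.71) and 2.87 times in replicate 2 (2.71 to 3.04), a ratio of 0.804 between the libraries (0.679 to 0.954). Against either neighbour, Mir183 was the member that was relatively lower in replicate 1. Mir182 to Mir96 was 3.07 in replicate 1 (2.64 to 3.58) and 3.19 in replicate 2 (3.02 to 3.38), and the ratio between the libraries, 0.961, had an interval of 0.817 to 1.13 that includes 1. On the log2 scale the mean ratios were 0.28 ± 0.18 for Mir182 over Mir183, 1.36 ± 0.22 for Mir183 over Mir96 and 1.65 ± 0.04 for Mir182 over Mir96 (SD, n = 2).

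**Figure D3:**
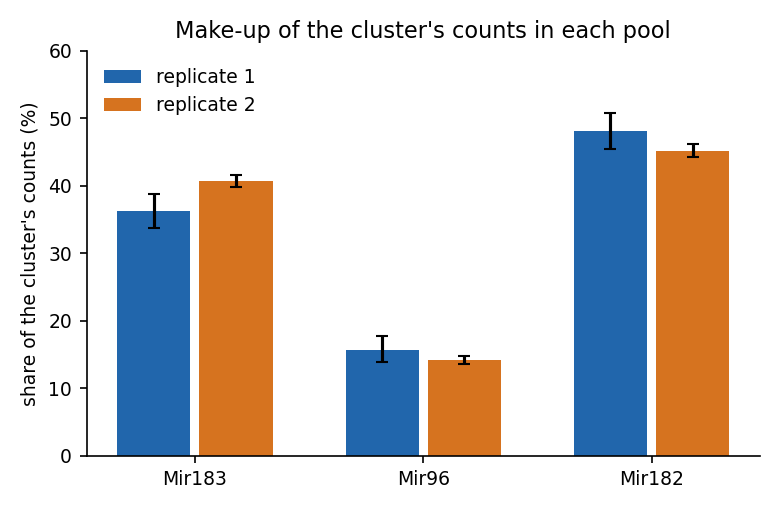
Share of the cluster's counts taken by each member, in percent, with replicate 1 left of replicate 2 and exact binomial 95% intervals. Mir182 had 48.1% and 45.2%, Mir183 36.2% and 40.7%, and Mir96 15.7% and 14.2% in replicates 1 and 2.

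In the column taken as the opposite strand the members had almost no counts. That column was told from the gene's strand by its smaller total over all genes (209241 counts in replicate 1, 299184 in replicate 2), so few counts there are no finding of their own. Mir182 had 1 opposite count in replicate 1 and 2 in replicate 2, Mir183 had 1 in each library, and Mir96 had 0 in each. These are under the 3 counts that a count of 0 allows.

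All 3 members were called higher in replicate 2 when each gene was set against counting noise. The test was an exact binomial test, two-sided and conditional on each gene's total, at library sizes scaled with TMM (a trimmed mean of log ratios), with Benjamini-Hochberg adjustment over all 413 genes with at least 10 counts summed. It compares 2 libraries and no conditions, and it leaves out the spread between pools. The log2 ratio of replicate 1 to replicate 2 was -2.18 for Mir183 (counting SE 0.07), -1.92 for Mir182 (SE 0.06) and -1.86 for Mir96 (SE 0.10). The adjusted p of this exact test was 2.77e-98 for Mir96 and at most 2.17e-299 for Mir183 and Mir182. Under this rule 46.2% of the tested genes were called in either direction (191 of 413), 24.7% higher in replicate 2 (102 of 413) and 21.5% higher in replicate 1 (89 of 413). At total counts in place of TMM these were 155 and 47 genes, with the median log2 ratio of the tested genes at -0.21 in place of -0.04. Called genes with a log2 ratio at or under -1 made up 7.75% of the tested genes (32 of 413), and all 3 members were among them. The central 95% of the tested genes ran from -2.28 to 1.05. Of the 413 tested genes, 14 had a lower ratio than Mir183, 19 a lower one than Mir182 and 20 a lower one than Mir96. The members are neighbours on the chromosome and are not independent observations of the difference.

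**Figure D4:**
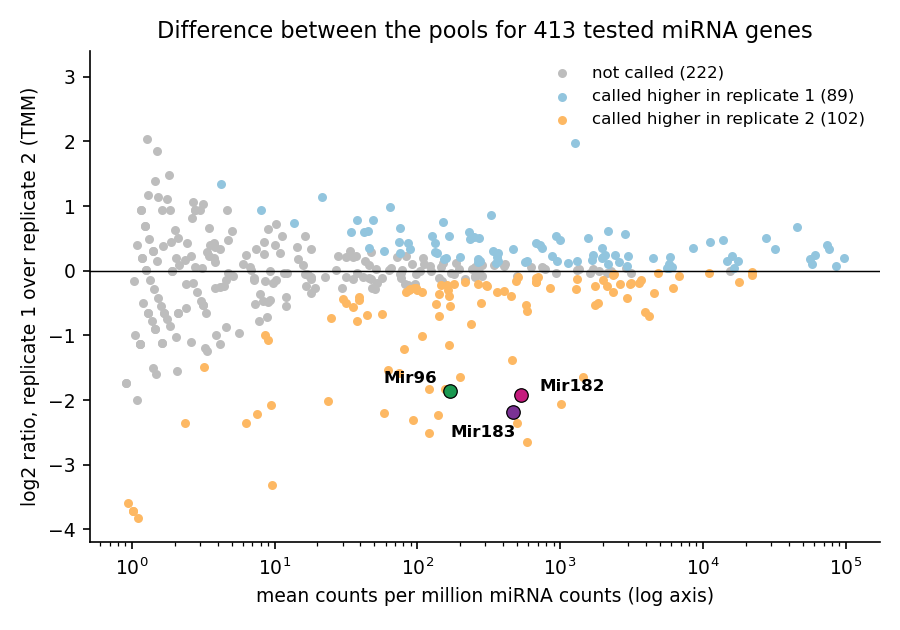
Log2 ratio of replicate 1 to replicate 2 after TMM scaling against mean level (CPM, log axis) for the 413 tested miRNA genes, with the cluster members outlined. Mir183 (-2.18), Mir182 (-1.92) and Mir96 (-1.86) lie together below most genes of their level.

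The genes most like the cluster in their ratio between the pools included members of the Mir200 family. Likeness was the distance of a gene's TMM-scaled log2 ratio from the cluster's median of -1.92, over 248 other genes with a mean of at least 100 counts. It rests on 2 libraries only. The nearest was Mir141 at -1.83, with 48.0 CPM in replicate 1, against 193 CPM in replicate 2. Next came Mir7b at -2.01, with 8.43 CPM in replicate 1, against 38.9 CPM in replicate 2, and Mir106a at -1.83, with 62.5 and 251 CPM in replicates 1 and 2. Mir200c followed at -2.06, at 357 CPM in replicate 1 against 1672 CPM in replicate 2, and then Mir429 and Mir122, both at -1.65. Mir141, Mir200c and Mir429 are miRNAs of epithelium, Mir7b is known from endocrine and neural cells, and Mir122 is the main miRNA of hepatocytes. Mir106a was not taken as a marker of any cell type here.

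Markers of other cell types were counted in the same libraries, and the epithelial ones moved with the cluster, as did single genes of other lists. In the epithelium list, made of the Mir200 family, Mir203 and Mir205, 7 of 7 genes were called higher in replicate 2 (24.7% of all tested genes were), and the list summed to 1821 CPM in replicate 1, against 6297 CPM in replicate 2. Its median log2 ratio was -1.65, against -0.04 over all tested genes, and its values ran from -2.35 for Mir205 to -0.39 for Mir203. None of its genes was at 0 in either library. Mir429, Mir200a and Mir200b are neighbours in the genome, as are Mir141 and Mir200c. The 7 genes are therefore not 7 independent observations of the difference. The cluster had 0.231 counts per count of the epithelium list in replicate 1 (0.218 to 0.245) and 0.304 in replicate 2 (0.298 to 0.310). The cluster and this list thus differed between the pools by 4.55 and 3.46 times. The part of epithelial cells in the cluster's difference was not tested.

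The neural and endocrine lists held called and uncalled genes. Of 12 neural genes 8 were tested and 3 were called higher in replicate 2, beside 24.7% of all tested genes. These were Mir128-1 (log2 ratio -1.15), Mir128-2 (-2.20) and the neuronal Mir137 (-2.23), against the cluster's median of -1.92. Ratios in the list ran up to 0.94, with 3 of the 8 above 0. The list summed to 310 CPM in replicate 1, against 732 CPM in replicate 2. At total counts Mir138-1 was called higher in replicate 2 as well, beside 37.5% of all tested genes. With DESeq2 size factors Mir138-2 was called higher in replicate 1, beside 24.7% of all tested genes called that way with these factors. The 3 Mir124a genes, the defining neuronal miRNAs, and Mir9-2 were at 0 in both libraries, but 11 of the 12 genes have 20 bases in a row in common with some other hairpin, and reads of such genes can be missing from the counts. In the endocrine list 2 of 3 genes were called higher in replicate 2 on the same background, and its sum was 166 CPM in replicate 1, against 1071 CPM in replicate 2. Nearly all of it was Mir375, a miRNA of pancreatic islets. The list's log2 ratios ran from -2.65 for Mir375 to 0.04 for Mir7-2. The cluster had 2.53 counts per count of the endocrine list in replicate 1 and 1.79 in replicate 2, a ratio of 1.42 between the libraries (1.28 to 1.57) that rests on Mir375. Without Mir375, the list had 20.1 CPM in replicate 1, against 35.7 CPM in replicate 2. Its median log2 ratio with all 3 genes was -0.74, against -0.04 over all tested genes. The list holds Mir7-1 and Mir7-2 but not Mir7b, whose log2 ratio was -2.01. The part of neural and endocrine cells in the cluster's difference was not tested either.

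The 2 genes of the list for retina and pigment epithelium lay nearer to equal levels than the cluster. Mir204, which is abundant in the retinal pigment epithelium, was at 69.5 CPM in replicate 1, against 84.7 CPM in replicate 2, with a log2 ratio of -0.11. Its paralogue Mir211 was at 3.49 CPM in replicate 1, against 4.80 CPM in replicate 2, with a log2 ratio of -0.25. Neither passed the test with TMM (adjusted p of the exact test 0.487 for Mir204 and 0.813 for Mir211), and Mir204 did at total counts (-0.28, adjusted p = 0.0270). In the list of ciliated cells, 1 of 3 tested genes was called higher in replicate 2 (Mir449a, -0.62), beside 24.7% of all tested genes. Another was called higher in replicate 1 (Mir34b, 0.74, a call that total counts did not give), beside 21.5% of all tested genes. Mir449b had 0 counts in replicate 1, and the list summed to 781 CPM in replicate 1, against 1114 CPM in replicate 2.

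With TMM scaling, the lists of the heart's main cell types did not share the cluster's direction. Of 5 tested genes in the heart muscle list, 3 were called higher in replicate 1, beside 21.5% of all tested genes (11.4% at total counts). These were Mir208b, Mir208a and Mir499, all hosted by myosin genes, and the list summed to 62461 CPM in replicate 1, against 45595 CPM in replicate 2. Its median log2 ratio of 0.49 is the value of Mir133a-1, which had only 5 and 7 counts in replicates 1 and 2. Mir1a-1 had 3 and 4 counts, and Mir133a-2 had 1 and 4. These 3 genes have 20 bases in a row in common with some other hairpin. Their reads can be missing from the counts, so the list sum may lack Mir1a and Mir133a. The smooth muscle pair Mir143 and Mir145a summed to 83564 CPM in replicate 1, against 89291 CPM in replicate 2. Both were called higher in replicate 1 with TMM, but Mir143 was called in the other direction at total counts (log2 ratio 0.07 with TMM and -0.10 at total counts). The endothelial Mir126a was called higher in replicate 1, at 79217 CPM there and 67775 CPM in replicate 2. Per count of the heart muscle list the cluster had 0.00674 counts in replicate 1 and 0.0420 in replicate 2.

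Blood, liver and gut lists were set beside the cluster too. The background with TMM was 24.7% of all tested genes called higher in replicate 2 and 21.5% called higher in replicate 1. The erythroid list had 2457 CPM in replicate 1, against 1095 CPM in replicate 2, with Mir451a called higher in replicate 1 and Mir486 called higher in replicate 2. With DESeq2 size factors Mir486 was not called and Mir144 was called higher in replicate 1, beside 24.7% of all tested genes called that way with these factors. In the leukocyte list 2 of 3 genes, Mir223 and Mir155, were called higher in replicate 2, beside 24.7% of all tested genes, and it summed to 480 CPM in replicate 1, against 702 CPM in replicate 2. The liver and gut list had 617 CPM in replicate 1, against 673 CPM in replicate 2, with Mir122 called higher in replicate 2 and Mir215 and Mir194-1 higher in replicate 1. Mir192 (log2 ratio 0.28) and Mir194-2 (-0.13) were not called with TMM. Mir194-1 and Mir194-2 have 20 bases in a row in common with some other hairpin, so their reads can be missing from the counts.

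**Figure D5:**
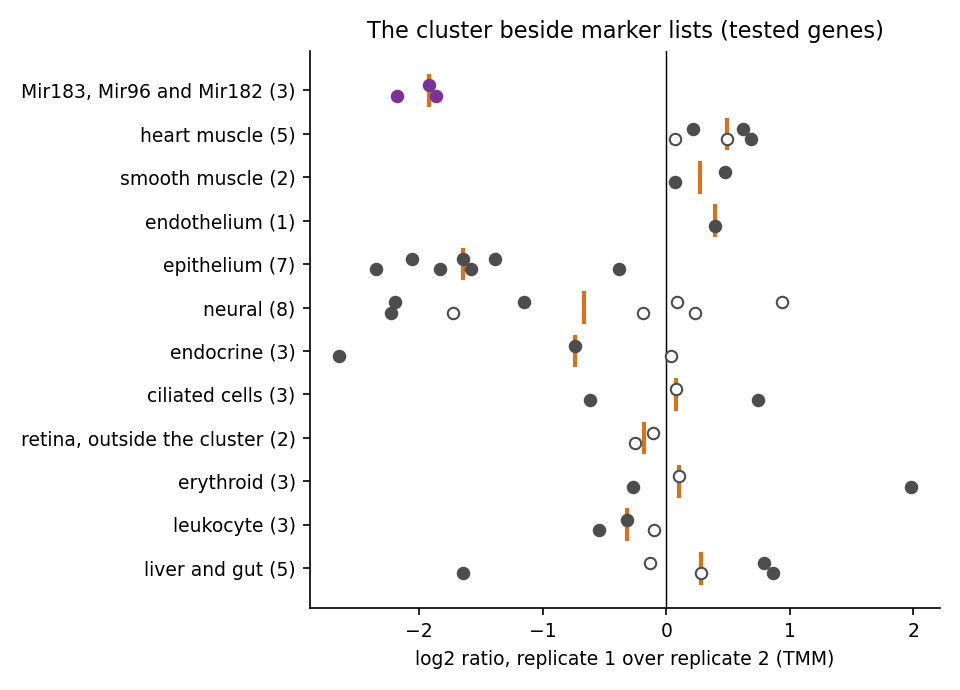
Log2 ratio of replicate 1 to replicate 2 for the tested genes of the cluster and of each marker list, with the number tested in parentheses, filled points for called genes, open points for the others and a bar at each median. The cluster (median -1.92) and the epithelium list (-1.65) lie to the left, the heart muscle list (0.49) to the right.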

How the data were processed

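Small RNA was sequenced from 2 pooled samples of embryonic mouse heart. The authors deposited whole, unnormalized read counts per miRNA gene for each library, placed on mm10 with GENCODE M4 per the text files deposited with them. Aligner, trimming and counting tool were not given in the sources used here. Each file has 3 unnamed count columns, read from their values as either strand, the gene's strand (the larger total of the single strands) and the opposite strand. The gene's strand was used. Lines that name no gene stayed out of totals, among them multiply matching reads (33.0% in replicate 1, 30.1% in replicate 2), unmapped reads (13.1% and 15.1%) and reads on no gene's strand (5.11% and 5.07%). Gene IDs were matched without version to GENCODE M21, the same assembly, which named 1894 of 1973.

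CPM used total counts on the gene's strand. TMM factors (0.942 and 1.06, edgeR 4.0.16, R 4.3.3) scaled the libraries for the two-sided exact conditional binomial test, 2 times the smaller tail, with p kept at or above 1e-300, adjusted by Benjamini-Hochberg with a threshold of 0.05. Log2 ratios used 0.5 added to each count. A group of 1 with 2 libraries leaves no residual degrees of freedom for a model between them. DESeq2 1.42.0 gave alternative size factors. Intervals came from scipy 1.17.1 under Python 3.11.15. The test was tried on simulated data with known changes and counting noise only, which cannot show how it behaves with spread between pools. Cell type lists took all numbered copies of a symbol, so Mir7b is in no list. Mir142 matched no counted gene and was not analysed here. Named by rule were the members, the genes beside them in mean level, the 6 nearest in log2 ratio, up to 3 leading genes per list and genes sharing a seed. Further genes of the lists were named outside this rule, for their call, their log2 ratio or their low counts. Members and lists were chosen with earlier results of these data known.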

Additional observations from a re-analysis of the deposited data

How the results depend on the processing

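No paired analysis was possible because the design has 1 group. The log2 ratio of replicate 1 to replicate 2 kept its sign and its call for all 3 members under total counts, DESeq2 size factors, no filter, a minimum of 100 counts summed and counts on either strand, from -2.35 to -2.14 for Mir183, -2.09 to -1.88 for Mir182 and -2.04 to -1.82 for Mir96. At total counts 155 genes were called higher in replicate 2 and 47 higher in replicate 1, against 102 and 89 with TMM. With a total that leaves out the 10 most abundant genes the cluster summed to 2926 CPM, since the denominator is smaller. Without genes that share a stretch of 20 bases the neural list summed to 139 CPM, the erythroid list to 411 CPM and the liver and gut list to 572 CPM, through fewer genes, and the endothelium list gave no value. The endocrine list without Mir375, chosen after seeing the data, summed to 27.9 CPM. The other 102 of 108 alternatives moved a value by no more than its SD or a count by at most 1.5 times, or kept the call. Leaving out 1 of 2 libraries always stays within that SD, so those alternatives could not come out otherwise. The endocrine list without Mir375 is among the 102 only because that list's SD of 640 CPM exceeds its mean of 619 CPM. For the cluster's levels the bound is wide too, because their SD over 2 pools is close to the mean. With all reads as denominator the cluster summed to 578 CPM, against 1167 CPM in the main setting, and still stayed within it. Leaving out a replicate leaves 1 library, so the cluster's level ran from 421 to 1914 CPM. Depth limits Mir96 in replicate 1 most, with 227 counts.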
